A study of Mus musculus with 2 samples.

Results

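C1q macrophages of the B16 tumors were defined by transcripts of the complement component C1q. A droplet barcode was counted as a member when it held at least 1 UMI (unique molecular identifier, a tag that marks 1 captured RNA molecule) of C1qa and at least 2 of C1qb, and no UMI of the T cell gene Cd3e or the B cell gene Cd79a. By this rule 240 of 13040 kept barcodes were members, 147 of 7433 in the h219-LLG library and 93 of 5607 in the control library. C1qa, C1qb, Cd3e and Cd79a therefore chose the cells, and their levels are given as a description only. At the edge of the rule, 10 members in the h219-LLG library and 11 in the control library had exactly 2 UMIs of C1qb, and 22 members in the h219-LLG library and 10 in the control library had exactly 1 UMI of C1qa. Just outside it, 8 barcodes in the h219-LLG library and 2 in the control library had C1qa but only 1 UMI of C1qb, and 37 in the h219-LLG library and 14 in the control library had at least 2 UMIs of C1qb but no C1qa.

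The study asked what blocking LAIR1, an inhibitory receptor of immune cells, did to the immune cells of a tumor. All mice were 6 to 8 weeks old, on the C57BL/6J background, lacked mouse Lair1 (mLAIR1-/-) and carried human LAIR1 driven by Vav-cre, which is active in blood-forming cells, so that both groups shared the transgene and the deletion. They received 500000 B16 melanoma cells under the skin and, from day 5 and every 4 days, 3 doses of 10 mg/kg of either h219-LLG (a humanized anti-LAIR1 antibody) or an isotype control antibody. Live mouse CD45+ cells, the immune cells of the tumor, were sorted at day 16 and sequenced by 10x Genomics single-cell RNA-seq as 1 library per group. With 1 library per group there was no replicate, so no test and no p-value is given. Intervals are 95% intervals that cover counting error only, and the antibody cannot be told apart from the tumors, the sort or the library. The human LAIR1 transgene was not among the features counted.

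C1q is the recognition part of the classical complement pathway, built from the products of 3 neighbouring genes, C1qa, C1qb and C1qc, whose proteins pair a collagen-like stalk with a globular head. Unlike most complement proteins, which come from the liver, C1q is made mainly by macrophages and immature dendritic cells. It marks tumor macrophages that take up dying cells and handle lipid, and its collagen-like stalk is a ligand of LAIR1.

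The 3 subunit genes lie side by side on the minus strand of mouse chromosome 4 (GENCODE M21 on GRCm38): C1qb at chr4:136880129-136886187, C1qc at chr4:136889804-136893065 and C1qa at chr4:136895917-136898803. The RefSeq promoter windows (GRCm38.p6) run 250 bases before to 50 bases after the start of the gene in RefSeq. That start can differ from the GENCODE start, and for C1qc it lies inside the GENCODE gene. Windows were found for 2 of these 3 genes and are shown because their transcripts define the cells. Only TGCTGA, the core of a Maf recognition element, and GAGGAA, the core of a PU.1 box, were searched on both strands, since Maf and PU.1 are macrophage transcription factors. Capitals mark the matches.
C1qb promoter, chr4:136886151-136886450, minus strand: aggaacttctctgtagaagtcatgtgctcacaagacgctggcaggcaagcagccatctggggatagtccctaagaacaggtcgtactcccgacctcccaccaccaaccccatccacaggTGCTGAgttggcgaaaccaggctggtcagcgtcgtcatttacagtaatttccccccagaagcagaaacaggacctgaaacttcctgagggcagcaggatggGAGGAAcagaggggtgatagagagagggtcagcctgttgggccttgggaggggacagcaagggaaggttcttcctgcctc
C1qc promoter, chr4:136892865-136893164, minus strand: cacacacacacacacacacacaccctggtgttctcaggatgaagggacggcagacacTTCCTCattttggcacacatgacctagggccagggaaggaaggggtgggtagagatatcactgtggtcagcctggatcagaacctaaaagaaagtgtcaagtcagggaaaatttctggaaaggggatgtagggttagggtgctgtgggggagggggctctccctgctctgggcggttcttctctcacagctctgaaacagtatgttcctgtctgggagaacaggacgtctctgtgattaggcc
The C1qb window held TGCTGA at position -131 and GAGGAA at position -30 from the RefSeq start of the gene. The C1qc window held GAGGAA on the other strand (written TTCCTC) at -193. These letters are common: TGCTGA was in 19.1% and GAGGAA in 28.3% of all 27025 promoter windows. A match describes the letters and is not evidence of binding.

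The kept barcodes held 47134567 UMIs in the h219-LLG library and 39485982 in the control library, with medians of 5050 and 5796 UMIs per barcode. The members alone held 1372560 UMIs in the h219-LLG library and 648374 in the control library. Per member, the median was 6894 UMIs and 2115 genes in the h219-LLG library, against 4046 UMIs and 1202 genes in the control library. The median mitochondrial share of a member was 3.06% in the h219-LLG library and 1.69% in the control library. Of the barcodes, 13 occurred in both libraries, and 0 of these were members. All levels below are CPM, the UMIs of a gene per 1000000 UMIs of the members of a library, and a ratio is h219-LLG over control unless stated otherwise.

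C1q macrophages made up 1.98% of kept barcodes (interval 1.67 to 2.32%) in the h219-LLG library and 1.66% (1.34 to 2.03%) in the control library, a ratio of 1.19 (0.922 to 1.54). The interval of the ratio included 1, so a difference in the share was not detectable at this number of cells. The step that removed Cd3e or Cd79a took out 118 of 265 barcodes (44.5%) in the h219-LLG library and 61 of 154 (39.6%) in the control library. The barcodes removed had medians of 24238 UMIs in the h219-LLG library and 20315 in the control library, several times those of the members. When they were counted as members, the ratio of the shares was 1.30 (1.07 to 1.58). A doublet caller marked 42 of them in the h219-LLG library and 31 in the control library.

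C1qa stood at 1834 CPM in the h219-LLG library and 1501 CPM in the control library, C1qb at 2298 and 2445 CPM, and C1qc, which the rule did not use, at 1233 and 1184 CPM. The middle member held 8 UMIs of C1qa in the h219-LLG library and 7 in the control library, and 6 UMIs of C1qc in either library. C1qc was found in 131 members (89.1%) of the h219-LLG library and 85 (91.4%) of the control library, with a ratio of 1.04 (0.956 to 1.14). In B cells, which should lack C1q, C1qa was at 7.62 CPM in the h219-LLG library and 6.10 CPM in the control library. It was seen in 0.936% of B cells in the h219-LLG library and 1.20% in the control library.

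The label macrophage was checked against 14 marker genes, and all 14 were found in the members of each library. They summed to 20585 CPM in the h219-LLG library and 18892 CPM in the control library. These markers did not set the members apart from classical monocytes, where all 14 were found too. There they summed to 28577 CPM in the h219-LLG library and 20661 CPM in the control library. In Spp1 or Arg1 macrophages without C1q the sums were 18544 and 11077 CPM. Lyz2, encoding lysozyme, was found in 97.3% of members in the h219-LLG library and 97.8% in the control library, Cd68 in 90.5% and 92.5%, and Apoe in 91.8% and 94.6%. In B cells, Lyz2 was found in 11.5% in the h219-LLG library and 5.99% in the control library, and Cd68 in 3.28% and 1.69%. Apoe was found in 39.5% and 40.1% of B cells, so its detection alone does not mark a macrophage. The receptor genes were found in fewer members. Csf1r, the receptor of macrophage colony-stimulating factor, was found in 59.2% of members in the h219-LLG library and 38.7% in the control library, and Mertk, a receptor for dying cells, in 25.2% and 5.38%. The members differed in depth, and after thinning each to 1000 UMIs the shares were 22.4% and 16.5% for Csf1r, with 143 and 85 members deep enough. Mertk was then left in 5 of 143 members in the h219-LLG library (3.50%) and 0 of 85 in the control library. A floor of 3 counts would be a control share of 3.53%, so no difference in its share can be read at equal depth.

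Markers of other cell types were low, with stated exceptions. B cell markers summed to 13.8 CPM in the h219-LLG library and 12.3 CPM in the control library, with Cd79a (by the rule) and Ms4a1 at 0. Fibroblast markers were at 0 in either library, and melanocyte markers summed to 25.5 CPM in the h219-LLG library and 30.8 CPM in the control library. T cell markers summed to 109 CPM in the h219-LLG library and 63.2 CPM in the control library. Classical monocyte markers summed to 1851 CPM in the h219-LLG library and 1491 CPM in the control library, and Ccr2, the receptor that brings monocytes out of the bone marrow, was found in 46.9% and 18.3% of members, without thinning. Neutrophil markers summed to 3912 CPM in the h219-LLG library and 18.5 CPM in the control library, where S100a8, Cxcr2 and Retnlg were at 0. In the h219-LLG library 1 cell held 5301 of the 5369 neutrophil marker UMIs.

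The members were not uniform. Clustering without the C1q genes gave 6 subgroups, which are called by number and leading genes. Their leading genes were found by the same clustering and only describe them. The number of cells of a subgroup and the level of its leading genes are set together, so their differences between libraries cannot be told apart.

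Subgroup 1, the largest, was led by Ccl8, Mmp12, Atp6v0d2, Igf1 and Fabp5. Ccl8 encodes a chemokine, Mmp12 the macrophage elastase, Atp6v0d2 a subunit of the lysosomal proton pump, Igf1 a growth factor and Fabp5 a fatty acid carrier. It held 47 cells (0.632% of kept barcodes, 0.465 to 0.840%) in the h219-LLG library and 61 cells (1.09%, 0.833 to 1.40%) in the control library, a ratio of 0.581 (0.398 to 0.849). Its cells had few UMIs, with medians of 2498 in the h219-LLG library and 2623 in the control library. Fth1, the ferritin heavy chain, stood at 35960 CPM in subgroup 1, against 11055 CPM in subgroup 2 and 3426 CPM in subgroup 4. Apoe, a lipid carrier, was at 8485 CPM and Trem2, a lipid receptor, at 609 CPM, against 2931 and 195 CPM in subgroup 2. C1qa stood at 2963 CPM here, against 2336 CPM in subgroup 3, 2139 CPM in subgroup 4 and 1992 CPM in subgroup 6. It stood at 1234 CPM in subgroup 5 and 1047 CPM in subgroup 2. C1qa is a gene of the rule, and cells with few UMIs pass it only at a higher CPM, so these levels only describe the cells.

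Subgroup 2 was led by Slc7a11, Spp1, Il1b, Ccl3 and Hspa1a. These encode a cystine transporter, osteopontin, interleukin 1 beta, a chemokine and a heat shock protein. It held 37 cells (0.498%) in the h219-LLG library and 14 (0.250%) in the control library, a ratio of 1.99 (1.08 to 3.68). Its cells were rich in RNA, with medians of 11485 UMIs in the h219-LLG library and 14070 in the control library. Genes of MHC class II presentation summed to 17283 CPM in subgroup 2 and 2976 CPM in subgroup 1.

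Subgroup 3 was led by the histone genes Hist1h1b, Hist1h2ae and Hist1h2ap, by Cdk1, the kinase that starts mitosis, and by 2810417H13Rik. It held 12 cells in each library, 0.161% of kept barcodes in the h219-LLG library and 0.214% in the control library, a ratio of 0.754 (0.339 to 1.68). Cell cycle genes summed to 4726 CPM here and 719 CPM in subgroup 1. Ccl8 was at 506 CPM and Mmp12 at 444 CPM, against 6.0 and 72.2 CPM in subgroup 2.

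Subgroup 4 was led by the interferon-stimulated genes Ifit1, Rsad2, Ly6a, Pydc4 and Mx1. It held 19 cells (0.256%) in the h219-LLG library and 2 (0.0357%) in the control library, a ratio of 7.17 (1.67 to 30.8). Interferon-stimulated genes summed to 6010 CPM in its h219-LLG cells and 3359 CPM in its 2 control cells. Ccr2 was found in 21 of its 21 cells and stood at 2399 CPM, against 41.8 CPM in subgroup 1. MHC class II genes were at 24527 CPM in its h219-LLG cells and 32324 CPM in its control cells.

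Subgroup 5 was led by Cd3d, Cd3g, Cd8b1, Gimap6 and Ltb, genes of T cells. It held 16 cells (0.215%) in the h219-LLG library and 4 (0.0713%) in the control library, a ratio of 3.02 (1.01 to 9.02). All 6 members that the doublet caller marked were in subgroup 5, as was the cell with neutrophil RNA. A list of T cell genes, added after seeing the subgroups, summed to 1550 CPM in subgroup 5 and to 272 CPM in all members of the h219-LLG library, against 167 CPM in those of the control library. A list of neutrophil granule genes, added in the same way, summed to 4756 CPM in the h219-LLG library and 3.1 CPM in the control library. In these barcodes, macrophage RNA and RNA of another immune cell were read together.

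Subgroup 6 was led by Prg4, Slpi, Saa3, Alox15 and Serpinb2. Prg4 encodes lubricin, Slpi a protease inhibitor, Saa3 a serum amyloid protein, Alox15 a lipoxygenase and Serpinb2 an inhibitor of plasminogen activators. It held 16 cells (0.215%, 0.123 to 0.349%) in the h219-LLG library. In the control library it held 0 of 5607, with an exact interval that reaches 0.0658%. Set against a floor of 3 counts (0.0535%), the h219-LLG share was 4.02-fold higher. That ratio leaves out the counting error of either share. Prg4 itself gave 715 UMIs in 10 cells, all of them in subgroup 6. Slpi gave 2012 UMIs in 13 cells, Saa3 1722 UMIs in 12 cells with 950 of them in 1 cell, and Alox15 333 UMIs in 10 cells.

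**Figure D1:**
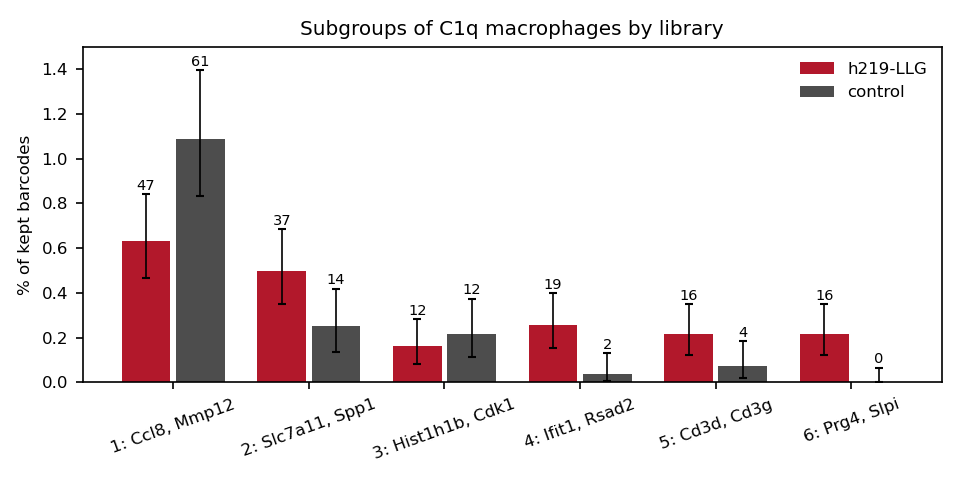
Share of each subgroup of C1q macrophages among the kept barcodes (% of kept barcodes, bars) in the h219-LLG library and the control library, with exact binomial 95% intervals that cover counting error only and the number of cells above each bar. Subgroup 1 had 47 cells in the h219-LLG library and 61 in the control library, and subgroup 6 had 16 cells in the h219-LLG library and 0 in the control library.

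In mice, Prg4, Alox15, Serpinb2, Saa3, Cd5l, Icam2, Fn1, Gata6 and Timd4 are known from resident macrophages of the peritoneal cavity. A list of 14 such genes, chosen after these values had been seen, summed to 23689 CPM in subgroup 6. Of these 7113 UMIs, Fn1 gave 3172 and Saa3 1722. The other members had 1434 CPM in the h219-LLG library and 688 CPM in the control library, of which Fn1 alone gave 1276 and 626 CPM. Gata6, the transcription factor of peritoneal macrophages, gave 25 UMIs in 7 of the 16 cells, and Timd4, a receptor for dying cells, 15 UMIs in 5. Prg4 was also read outside the members, in 66 of 7286 barcodes (297 UMIs) in the h219-LLG library and 27 of 5514 (32 UMIs) in the control library. So the transcript was read in both libraries, but no control member held it. Whether these cells came from the tumor or from tissue taken with it was not tested.

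Subgroups 4, 5 and 6 together held 51 of 147 members (34.7%, 27.0 to 43.0%) in the h219-LLG library and 6 of 93 (6.45%, 2.40 to 13.5%) in the control library. Comparisons between all members therefore also compare different mixtures of subgroups. For this reason most list medians below are given beside the median without these 3 subgroups, and beside that of subgroup 1 alone where it had the other sign. Leaving the 3 subgroups out did not even out the mixture. Of the 96 h219-LLG and 87 control members left, 37 and 14 were in subgroup 2, and 47 and 61 in subgroup 1.

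**Figure D2:**
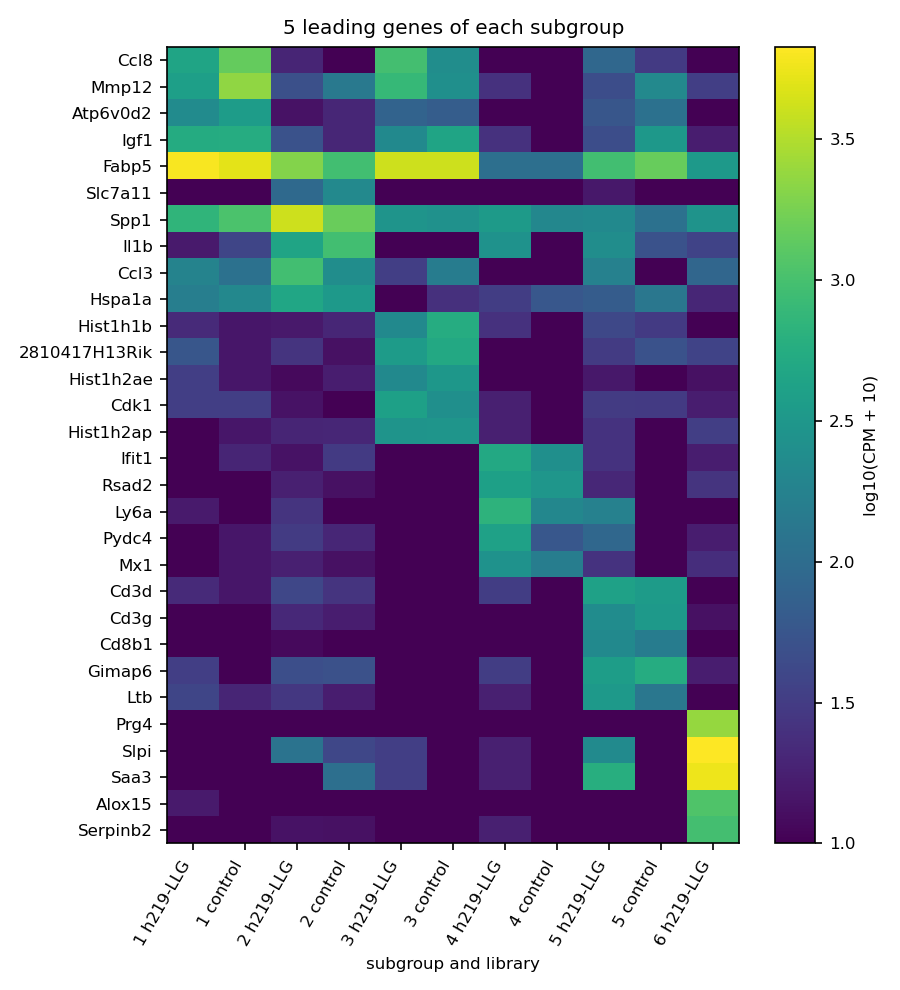
Heat map of the 5 leading genes of each subgroup (rows) in each subgroup and library (columns), as log10(CPM + 10). Prg4, Slpi, Saa3, Alox15 and Serpinb2 were highest in subgroup 6, with Saa3 and Slpi also read at lower levels elsewhere, and Ccl8 and Mmp12 were higher in the control column of subgroup 1 than in its h219-LLG column.

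Malat1, a long noncoding RNA kept in the nucleus, varied widely from cell to cell. The middle member had 102 Malat1 UMIs per 10000 in the h219-LLG library and 2.97 in the control library. Malat1 was at 0 in 12 of 147 members (8.16%, 4.29 to 13.8%) in the h219-LLG library, against 37 of 93 (39.8%, 29.8 to 50.5%) in the control library. The other myeloid sets measured had almost no such cell. Of Spp1 or Arg1 macrophages without C1q, 0 of 53 in the h219-LLG library and 0 of 48 in the control library were at 0, and of classical monocytes 0 of 204 and 1 of 87.

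The members without Malat1 were in subgroups 1, 3 and 6. In subgroup 1, 9 of 47 cells (19.1%) in the h219-LLG library and 29 of 61 (47.5%) in the control library were at 0. In subgroup 3, 2 of 12 cells in the h219-LLG library and 8 of 12 in the control library were at 0, and in subgroup 6, 1 of 16. No cell of subgroups 2, 4 and 5 was at 0. The cells of subgroup 1 had like numbers of UMIs in either library (medians above). A barcode without this nuclear RNA can hold cytoplasm or fragments rather than a whole cell, and what part this had in the results was not tested. Among members with at least 1 Malat1 UMI, 135 were in the h219-LLG library and 56 in the control library, and the ratio of the shares was 1.82 (1.33 to 2.48).

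**Figure D3:**
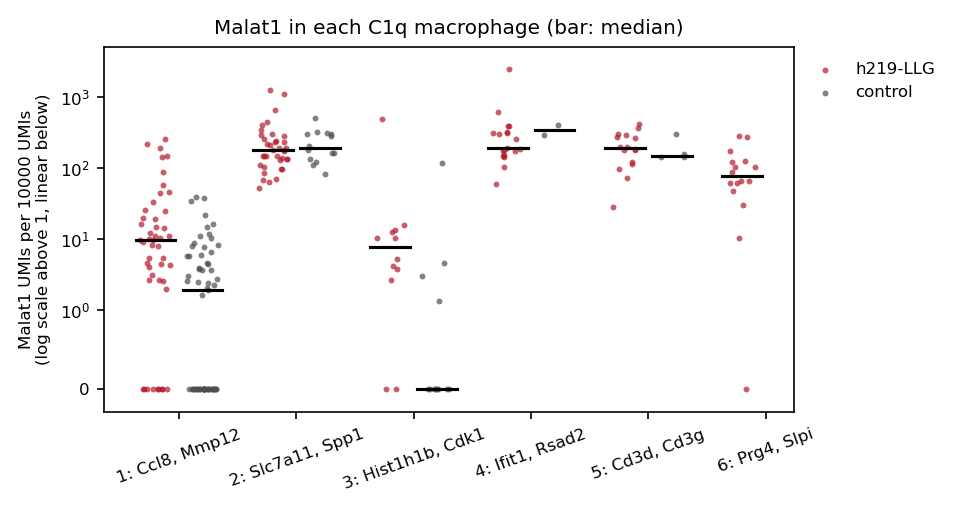
Malat1 UMIs per 10000 UMIs in each C1q macrophage (1 point per cell, bars at the median; the axis is logarithmic above 1 and linear below), by subgroup and library. In subgroup 1 the medians were 9.64 in the h219-LLG library and 1.90 in the control library, and the cells at 0 lay in subgroups 1, 3 and 6.

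Over all members, 4742 genes had at least 50 UMIs. Of these, 340 (7.17%) were at least 2-fold higher in the h219-LLG library and 40 (0.844%) at least 2-fold lower. The median log2 ratio of all 4742 genes was 0.09, and 58.4% lay above 0. These shares over all genes are the background against which the list counts below should be read. With TMM scaling, which sets the libraries equal over the bulk of the genes, 251 were higher and 72 lower. Without subgroups 4, 5 and 6, 113 of 3344 genes (3.38%) were higher and 27 (0.807%) lower. In subgroup 1 alone, 33 of 965 genes (3.42%) were higher and 19 (1.97%) lower, with a median log2 ratio of -0.04.

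Much of the difference lay in a few cells. Of the 340 higher genes, 83 had most of their h219-LLG UMIs in subgroup 6, 10 in subgroup 4 and 13 in a single cell. Of the 340, 109 could be measured without subgroups 4, 5 and 6, and 63 of these were still at least 2-fold higher. Of the 40 lower genes, 29 could be measured there and 15 were still at least 2-fold lower. Genes read mostly from 1 cell (S100a8 and S100a9, for example) or over 5 times higher in other cells were set aside from the extremes. Of the rest that reached 100 UMIs, genes of subgroup 6 had the highest ratios: Prg4 with 715 UMIs in the h219-LLG library and 0 in the control library, Alox15 with 334 and 0, Serpinb2 with 290 and 1, Cd5l with 261 and 1, Slpi with 2113 and 9, and Ptgs1 with 105 and 1. The 10 genes of highest CPM were Gm42418, Fth1, Tmsb4x, Malat1, Actb, Ftl1, Lyz2, Tpt1, Rps29 and mt-Atp6.

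Mmp12 and Ccl8 had the lowest ratios of the same genes. Mmp12 gave 136 UMIs in 39 members of the h219-LLG library and 547 UMIs in 42 members of the control library, a ratio of 0.117 (0.0966 to 0.142). Ccl8 gave 136 UMIs in 33 members and 321 UMIs in 32 members, a ratio of 0.200 (0.163 to 0.245). As a share, Mmp12 was found in 26.5% of members in the h219-LLG library and 45.2% in the control library, and Ccl8 in 22.4% and 34.4%. Within subgroup 1, Mmp12 gave 66 UMIs in the h219-LLG library and 481 in the control library, and Ccl8 gave 75 and 304. In the control library 1 cell held 155 Mmp12 UMIs and 1 cell 136 Ccl8 UMIs. Without the top cell of each library, the ratio was 0.148 (0.120 to 0.182) for Mmp12 and 0.309 (0.244 to 0.391) for Ccl8. Among members with at least 1 Malat1 UMI it was 0.073 (0.058 to 0.091) for Mmp12 and 0.171 (0.137 to 0.212) for Ccl8.

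Further lower genes with at least 100 UMIs were Atp6v0d2 with 52 UMIs in the h219-LLG library and 87 in the control library (ratio 0.282), Slc7a11 with 45 and 61 (0.348), Dnmt3a, a DNA methyltransferase, with 68 and 90 (0.357), and Igf1 with 135 and 165 (0.386). In subgroup 1 alone the ratio of Igf1 was 0.97.

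Among the genes tied to LAIR1, mouse Lair1 gave 58 UMIs in 37 members of the h219-LLG library and 51 UMIs in 10 members of the control library. The ratio was 0.537 (0.362 to 0.799), but 32 of the 51 control UMIs came from 1 cell. Without the top cell of each library, 52 UMIs remained in the h219-LLG library and 19 in the control library, a ratio of 1.29 (0.752 to 2.32), so 1 cell set the direction. The mice were labelled as lacking mouse LAIR1, and these UMIs are counts at the gene's locus that do not check the genotype. By subgroup, Lair1 was at 188 CPM in subgroup 4 and 31.3 CPM in subgroup 2. Of 15 genes that encode LAIR1 ligands, collagens among them, only the 3 C1q genes reached 50 UMIs in the members.

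A list of Lair1, other inhibitory receptors and enzymes of their signaling had 14 measured genes. Of these, 12 lay above a ratio of 1 and 2 below it, with 0 past 2-fold in either direction and a median log2 ratio of 0.45 (0.38 without subgroups 4, 5 and 6), against 0.09 over all genes. Cd200r1, the receptor of CD200, gave 78 UMIs in the h219-LLG library and 21 in the control library, a ratio of 1.75 (1.07 to 2.99). Inpp5d, the phosphatase SHIP1, gave 157 and 44, a ratio of 1.69 (1.20 to 2.41). Ptpn6, encoding SHP-1, which LAIR1 recruits, gave 226 and 77, a ratio of 1.39 (1.07 to 1.82), and Ptpn11, encoding SHP-2, 43 and 19, a ratio of 1.07 (0.610 to 1.94). Lilrb4a, a related inhibitory receptor, was the other member below 1, with 517 UMIs in the h219-LLG library and 324 in the control library, a ratio of 0.754 (0.655 to 0.869).

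The study measured CD86, CD206, CD163 and IL-6 as proteins in cultured human cells, whereas the values here are RNA of mouse tumor cells. In macrophages grown from monocytes, h219-LLG raised CD86, lowered CD206 and reversed a drop of IL-6 caused by collagen. The fall of CD163 was seen in enriched suppressor myeloid cells of a lung cancer patient, where CD86 rose too. Cd86, a T cell costimulator, gave 138 UMIs in 58 members of the h219-LLG library and 45 UMIs in 21 members of the control library, a ratio of 1.45 (1.03 to 2.08). Mrc1, the mannose receptor CD206, gave 687 UMIs in 79 members and 232 UMIs in 41 members, a ratio of 1.40 (1.20 to 1.63). Cd86 and Mrc1 are often used as signs of opposite activation states, and the intervals of their ratios overlapped. In subgroup 1, Mrc1 gave 96 UMIs in the h219-LLG library and 89 in the control library, and Cd86 5 and 6. Cd163, a hemoglobin receptor, gave 11 and 1 UMIs, a ratio of 5.20 with an interval of 0.755 to 224. Il6 gave 2 UMIs in the h219-LLG library and 0 in the control library, which is too few for a comparison. Colec12, a collectin that the study names as a LAIR1 ligand, gave 2 in each, also too few.

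Interferon-stimulated genes were higher as a list. Of 14 measured, 14 lay above a ratio of 1, 10 past 2-fold, with a median log2 ratio of 1.27, against 0.09 over all genes. Oasl2, of the oligoadenylate synthetase family, gave 101 UMIs in 43 members of the h219-LLG library and 7 UMIs in 4 members of the control library, a ratio of 6.82 (3.19 to 17.4). Mx1, an antiviral GTPase, gave 46 and 5 (ratio 4.35), and Rsad2, the antiviral enzyme viperin, 63 and 7 (ratio 4.25). The lowest ratio of the list was that of Bst2, encoding tetherin, at 1.01 (0.821 to 1.26).

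Subgroup 4 held 41.3% of the UMIs of the 14 genes in the h219-LLG members. Its leading genes Ifit1 and Rsad2, with 66 of 73 and 52 of 63 UMIs there, were found by the clustering. Without the 5 leading genes named for subgroup 4, 11 of 11 measured genes lay above a ratio of 1, 7 past 2-fold, with a median of 1.03. Subgroup 4 held 35.8% of their UMIs. Oasl2 and Irf7 stayed in, though they too ranked high in subgroup 4. There they stood at 306 and 384 CPM, against 32.7 and 30.5 CPM in the other members. The shortened list is therefore not independent of the clustering. Without subgroups 4, 5 and 6, Ifit1 gave 2 UMIs in the h219-LLG library and 8 in the control library, and the median log2 ratio of the 5 genes still measured was 0.37. Oasl2 gave 32 and 3 UMIs there. Targets of interferon gamma were similar: 5 of 5 measured lay above 1, 3 of them past 2-fold, with a median log2 ratio of 1.21. Ciita, the master regulator of MHC class II, gave 47 UMIs in 24 members of the h219-LLG library and 3 UMIs in 3 members of the control library, a ratio of 7.40 (2.38 to 37.2).

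The promoters of Ifit1 and Rsad2 are shown because these transcripts led subgroup 4. Capitals mark the core of the interferon-stimulated response element (GAAA, any 2 bases, GAAA), the only motif searched here, on both strands. In these windows it was on the other strand and reads TTTC, any 2 bases, TTTC.
Ifit1 promoter, chr19:34640639-34640938, plus strand: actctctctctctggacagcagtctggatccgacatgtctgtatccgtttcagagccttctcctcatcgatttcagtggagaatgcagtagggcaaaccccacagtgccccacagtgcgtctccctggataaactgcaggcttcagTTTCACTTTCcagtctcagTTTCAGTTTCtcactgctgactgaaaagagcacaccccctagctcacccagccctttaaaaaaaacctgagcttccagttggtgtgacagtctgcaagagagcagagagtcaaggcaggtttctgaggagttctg
Rsad2 promoter, chr12:26456403-26456702, minus strand: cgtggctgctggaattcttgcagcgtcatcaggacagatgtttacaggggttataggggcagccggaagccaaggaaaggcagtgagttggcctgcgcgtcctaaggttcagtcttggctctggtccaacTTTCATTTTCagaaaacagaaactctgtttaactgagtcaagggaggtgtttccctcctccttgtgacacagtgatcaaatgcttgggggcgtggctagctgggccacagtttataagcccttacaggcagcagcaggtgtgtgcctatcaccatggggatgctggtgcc
Ifit1 had 2 matches, at -104 and -85 from its RefSeq start, and Rsad2 had 1, at -120. The motif was in 10 of the 18 windows found for the 26 genes of the list (55.6%) and in 3.49% of all 27025 windows. Among the 9 list genes that were measured in the members and had a window, 6 held it, Bst2 with its ratio near 1 among them.

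MHC class I genes were higher by less. Of 14 measured, 14 lay above a ratio of 1 and 2 past 2-fold, against 58.4% and 7.17% of all genes. Their median log2 ratio was 0.61. Tap1, a part of the peptide transporter, gave 109 UMIs in the h219-LLG library and 18 in the control library, a ratio of 2.86 (1.73 to 5.01). H2-K1, a class I heavy chain, stood at 1158 CPM in the h219-LLG library and 722 CPM in the control library, a ratio of 1.60 (1.45 to 1.78). B2m, its light chain, stood at 2367 and 1936 CPM. Without subgroups 4, 5 and 6, the median of the 10 genes measured was 0.34, and 8 of them lay above a ratio of 1. Of 7 MHC class II genes, Ciita included, 5 lay below 1, with a median of -0.17 that was -0.09 without subgroups 4, 5 and 6. The direction turned with the mean of single-cell CPM, where every member counts alike and the median was 0.46. H2-Eb1 stood at 1667 CPM in the h219-LLG library and 2457 CPM in the control library, a ratio of 0.678 (0.636 to 0.724) that was above 1 with the mean of single-cell CPM (log2 ratio 0.15), and Cd74, the invariant chain, at 3970 and 4869 CPM.

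Chemokine genes were split, with a median log2 ratio of 0.90 (0.42 without subgroups 4, 5 and 6). Of 14 measured, 6 lay below a ratio of 1, 1 of them past 2-fold (all genes: 0.844%). The other 8 lay above 1 (all genes: 58.4%), 7 of them past 2-fold (all genes: 7.17%). Those above included the monocyte attractants Ccl2, at 2345 CPM in the h219-LLG library and 1154 CPM in the control library (ratio 2.03, 1.88 to 2.20), and Ccl7, at 1222 and 356 CPM (ratio 3.43, 2.99 to 3.95). Ccl3, which attracts other immune cells, gave 578 UMIs in 42 members and 102 UMIs in 23 members (ratio 2.68). Without subgroups 4, 5 and 6 the ratio was 3.26 for Ccl2, 5.38 for Ccl7 and 3.97 for Ccl3. These values keep subgroup 2, which held more h219-LLG cells and had 3525 CPM of Ccl2 against 871 CPM in the other members. In subgroup 1 alone the ratios lay the other way for most: 8 of 10 measured were below 1, with a median of -0.52, and Ccl2 gave 156 UMIs in the h219-LLG library and 286 in the control library.

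Cxcl1, a neutrophil attractant, gave 426 UMIs in the h219-LLG library and 14 in the control library, but 383 of the 426 were in subgroup 6. Among inflammatory mediators, 6 of 9 lay above 1 and 3 below, with a median of 0.73 that was -0.31 without subgroups 4, 5 and 6. Saa3 gave 1836 UMIs in the h219-LLG library and 29 in the control library, and 1722 of the 1836 were in subgroup 6. Il1b gave 321 and 282 UMIs, a ratio of 0.538 (0.457 to 0.633) that was above 1 after thinning to 1000 UMIs (log2 ratio 0.38), and Nlrp3, the inflammasome sensor, 53 and 58, a ratio of 0.432 (0.292 to 0.638). Tnf gave 48 and 23 UMIs, a ratio of 0.986 (0.588 to 1.70).

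Of 12 complement genes without C1qa, C1qb and C1qc, 10 lay above a ratio of 1 and 2 below, with 4 past 2-fold and a median log2 ratio of 0.67. Over all genes, 58.4% lay above 1 and 7.17% past 2-fold higher. C4b, the next component of the classical pathway after C1, gave 161 UMIs in 20 members of the h219-LLG library and 2 UMIs in 2 members of the control library, a ratio of 38.0 (10.4 to 317). Of the 161 UMIs, 148 were in subgroup 6. Without subgroups 4, 5 and 6, C4b gave 4 UMIs in the h219-LLG library and 1 in the control library, which is too few for a comparison. None of the 9 complement genes that still had 50 UMIs there was past 2-fold, and their median was 0.24. C1qbp, a mitochondrial protein that can bind C1q, had a ratio of 0.777 (0.594 to 1.02), and Itgax, an integrin that takes up complement-coated targets, 0.538 (0.350 to 0.830).

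Of 14 genes for the clearance of dying cells, 12 lay above a ratio of 1, 3 past 2-fold higher and 1 past 2-fold lower, with a median of 0.43 (0.36 without subgroups 4, 5 and 6). Over all genes, 58.4% lay above 1, 7.17% past 2-fold higher and 0.844% past 2-fold lower. Mertk gave 65 UMIs in 37 members of the h219-LLG library and 6 UMIs in 5 members of the control library, a ratio of 5.12 (2.23 to 14.5), and it was 4.03 without subgroups 4, 5 and 6. Pros1, which bridges Mertk to dying cells, gave 73 and 4 UMIs, a ratio of 8.62 (3.23 to 32.5), with 40 of the 73 in subgroup 6. Gas6, the other bridging ligand, gave 86 and 47 UMIs, a ratio of 0.864 (0.599 to 1.26). Cd36, a scavenger receptor, gave 158 and 188 UMIs, a ratio of 0.397 (0.319 to 0.493), and 19 and 59 in subgroup 1.

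Lipid handling genes had 8 of 16 above a ratio of 1, 8 below, 0 past 2-fold higher, 2 past 2-fold lower and a median of 0.00 (0.15 without subgroups 4, 5 and 6, -0.11 in subgroup 1). Apoe stood at 4833 CPM in the h219-LLG library and 4470 CPM in the control library. Lgals3, encoding galectin 3, was found in 142 members of the h219-LLG library and 93 of the control library, at 2710 and 5466 CPM, a ratio of 0.496 (0.473 to 0.519). Abcg1, a cholesterol exporter, gave 101 and 24 UMIs, a ratio of 1.99 (1.26 to 3.25). Spp1 gave 2476 UMIs in the h219-LLG library and 701 in the control library, a ratio of 1.67 (1.53 to 1.82), with 926 of them in 1 h219-LLG cell. In subgroup 1 alone the log2 ratio of Spp1 was -0.61. Lysosomal genes lay close to 1, with 14 of 16 above it, 0 past 2-fold and a median of 0.08 (0.21 without subgroups 4, 5 and 6, -0.04 in subgroup 1). Grn, encoding progranulin, was highest, at 716 CPM in the h219-LLG library and 423 CPM in the control library, and Ctsl, the protease cathepsin L, was lowest, at 548 and 662 CPM.

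Of the 22 lists, 4 had a median below 0: MHC class II, cell cycle, iron and heme, and hypoxia and glycolysis. Fth1 stood at 11922 CPM in the h219-LLG library and 20923 CPM in the control library, a ratio of 0.570 (0.557 to 0.583), and Ftl1, the ferritin light chain, at 8548 and 12525 CPM, a ratio of 0.682 (0.663 to 0.702). Within subgroup 1 the ratio of Fth1 was 0.86. Of 11 iron and heme genes, 4 lay above a ratio of 1 and 7 below, with a median of -0.12 (also without subgroups 4, 5 and 6). Of 16 genes of hypoxia and glycolysis, 3 lay above and 13 below, 1 past 2-fold, with a median of -0.32. Pgk1, a glycolytic kinase, gave 41 UMIs in the h219-LLG library and 46 in the control library, a ratio of 0.421 (0.269 to 0.656), and Mif, a cytokine induced by hypoxia, 811 and 675, a ratio of 0.568 (0.512 to 0.630). The median of the glycolysis list was -0.05 without subgroups 4, 5 and 6, with 7 of 16 above 1.

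Genes of resident-type and alternative activation were even, 7 above a ratio of 1 and 7 below, with a median of 0.11 (0.17 without subgroups 4, 5 and 6, -0.46 in subgroup 1). Retnla, a secreted protein of alternative activation, gave 1902 UMIs in the h219-LLG library and 183 in the control library, a ratio of 4.91, but in only 6 and 5 cells. Mgl2, a lectin, gave 130 and 129 UMIs, a ratio of 0.476 (0.370 to 0.612), in 13 and 10 cells. Arg1, which degrades arginine, gave 993 and 247 UMIs, a ratio of 1.90 (1.65 to 2.19), with 578 of the 993 in subgroup 6. In subgroup 1 alone its log2 ratio was -2.71. In the control library 1 cell held 166 of the 247 UMIs, and without the top cell of each library Arg1 gave 830 and 81 UMIs, a ratio of 4.84 (3.85 to 6.16). Matrix genes were split too, 6 above and 5 below, with a median of 0.06 (0.00 without subgroups 4, 5 and 6, -0.11 in subgroup 1). Fn1, fibronectin, gave 4540 and 406 UMIs, a ratio of 5.28 (4.77 to 5.86), with 3172 of the 4540 in subgroup 6. Timp1, an inhibitor of matrix proteases, gave 136 and 9 UMIs, a ratio of 7.14 (3.65 to 15.9), with 114 of the 136 in subgroup 6.

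Markers of macrophage identity lay near 1, with 10 of 16 above a ratio of 1 and a median of 0.25 (0.10 without subgroups 4, 5 and 6). Over all genes, 58.4% lay above 1. Besides Mertk, Cx3cr1, the fractalkine receptor, was past 2-fold, with 112 UMIs in the h219-LLG library and 25 in the control library (ratio 2.12, 1.36 to 3.41), and with 37 and 2 in subgroup 1. Ligands of T cell receptors were above 1 in 6 of 8, with a median of 0.60 (0.51 without subgroups 4, 5 and 6). Cd40, a costimulator, gave 44 and 8 UMIs (ratio 2.60, 1.21 to 6.39) and Vsir, encoding the checkpoint VISTA, 253 and 55 (ratio 2.17, 1.62 to 2.96). Havcr2, encoding the checkpoint TIM-3, was lowest of that list, with 40 and 35 UMIs (ratio 0.540, 0.334 to 0.875). Fc receptor genes had 4 of 6 above 1, 0 past 2-fold and a median of 0.20 (0.11 without subgroups 4, 5 and 6, -0.20 in subgroup 1). They ran from Fcgr1, the high-affinity IgG receptor, at 212 CPM in the h219-LLG library and 150 CPM in the control library, to Fcer1g, the signaling chain of these receptors, at 2187 and 2586 CPM. Cell cycle genes had 6 of 13 above 1 and a median of -0.11 (0.07 without subgroups 4, 5 and 6). Mcm3, a part of the replicative helicase, was the only one of them past 2-fold, with 64 and 12 UMIs (ratio 2.52, 1.35 to 5.13).

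Genes of heat shock and early response, which tissue dissociation can induce, had 12 of 18 above 1, 2 past 2-fold higher and a median of 0.31 (0.47 without subgroups 4, 5 and 6), against 58.4% of all genes above 1 and 7.17% past 2-fold. Dusp1, a phosphatase, stood at 870 CPM in the h219-LLG library and 355 CPM in the control library, and Fos, a transcription factor, at 1121 and 494 CPM. Atf3, a stress transcription factor, was lowest, at 495 CPM in the h219-LLG library and 763 CPM in the control library, a ratio of 0.648 (0.576 to 0.729). Genes of S100 proteins and monocytes had 10 of 14 above 1, 5 past 2-fold and a median of 0.47. The median was -0.02 without subgroups 4, 5 and 6, with 5 of 11 above 1, and in subgroup 1 it was -0.76 with 0 of 4 above 1. S100a8 gave 2851 UMIs in the h219-LLG library and 0 in the control library, of which 2840 were in 1 cell. Ccr2 gave 982 UMIs in 69 members of the h219-LLG library and 193 UMIs in 17 members of the control library, a ratio of 2.40 (2.06 to 2.82), with 341 of the 982 in subgroup 4. The part of dissociation and of recent monocytes in the other lists was not tested.

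**Figure D4:**
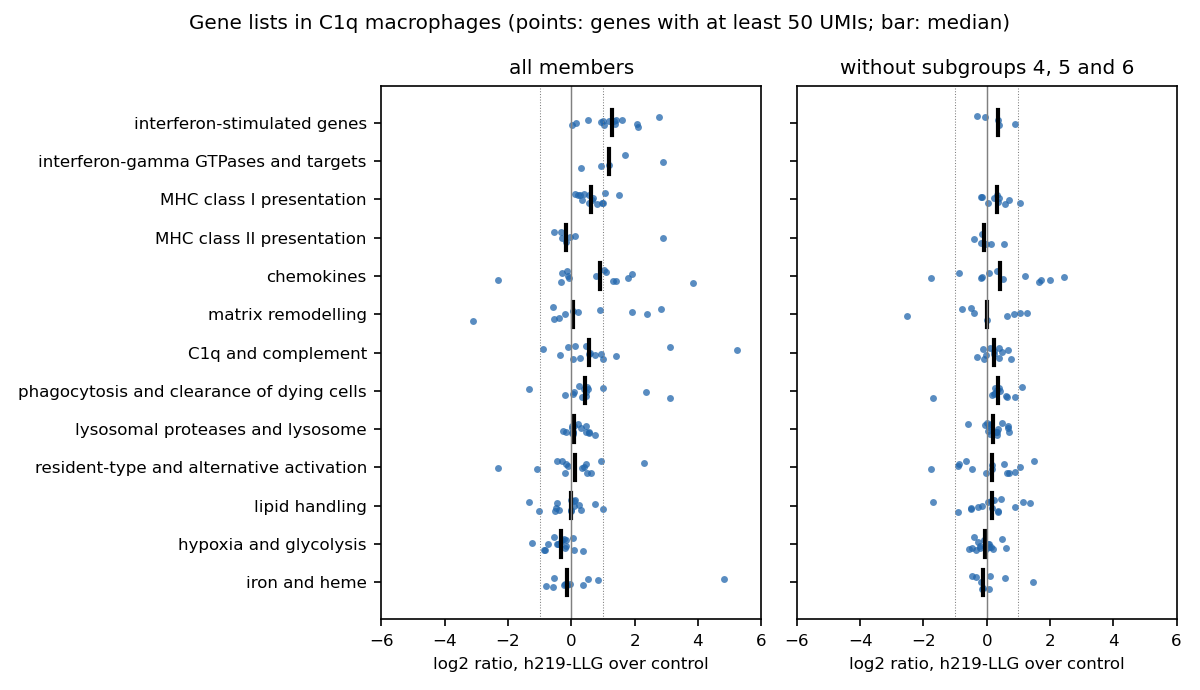
Log2 ratio of h219-LLG over control for each measured gene (points; at least 50 UMIs) of 13 gene lists in C1q macrophages, with the median of the list (bar), in all members (left) and without subgroups 4, 5 and 6 (right). Interferon-stimulated genes had a median of 1.27 in all members and 0.37 without these subgroups, and Mmp12 and Ccl8 are the lowest points of their lists.

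C1q macrophages were last set against the most similar cells of the same tumors: 53 Spp1 or Arg1 macrophages without C1q in the h219-LLG library and 48 in the control library, and 204 and 87 classical monocytes. A gene was counted when its CPM in the members was at least 2-fold above, or 2-fold below, that of both sets together in each library. Of 2796 genes with at least 100 UMIs in the members, without those that define the sets, 97 (3.47%) were higher and 37 (1.32%) lower in the members. The sets were chosen by transcripts of the same libraries, so these values describe the cells and are no test.

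The highest were Retnla, Ccl8, Gas6, Ccl12, Atp6v0d2, Serpinb6a, Ms4a7, Igf1, Fcrls and Cbr2. Most members lacked Retnla (cell counts above), and it gave 665 UMIs in 1 cell of subgroup 4 and 573 in 1 cell of subgroup 6. Ms4a7, a membrane protein of tissue macrophages, stood at 369 CPM in C1q macrophages, against 38.6 CPM in Spp1 or Arg1 macrophages and 12.0 CPM in classical monocytes of the h219-LLG library. In the control library the values were 464, 42.1 and 6.71 CPM. Gas6 stood at 62.7 CPM in C1q macrophages of the h219-LLG library and 72.5 CPM in those of the control library, against at most 1.61 CPM in the other sets. Ccl8 stood at 99.1 CPM in C1q macrophages of the h219-LLG library and 495 CPM in those of the control library, against at most 0.999 CPM in the other sets. Ccl8 was thus nearly absent from the other sets of either library.

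By list, the members stood apart from both sets together in alternative activation, lipid handling and chemokines. Monocytes held most UMIs of the sets, 2001726 against 621297 in the h219-LLG library and 1043647 against 593193 in the control library. The counts therefore need not hold against Spp1 or Arg1 macrophages alone. Of 13 genes of resident-type and alternative activation, 9 were higher in both libraries (Mrc1, Folr2, Stab1, Pf4, Gas6, Retnla, Clec10a, Mgl2 and Ccl8) and Chil3 was lower. Retnla and Mgl2 were read in few members (cell counts above). Mrc1 in the control library stood at 358 CPM in members, 199 CPM in Spp1 or Arg1 macrophages and 3.83 CPM in monocytes. In the h219-LLG library the values were 501, 187 and 32.5 CPM. Of 15 lipid genes, 8 were higher, Apoe, Trem2, Fabp5 and Cd36 among them, and of 14 chemokine genes 6 were higher. Of the 8 interferon-stimulated and 10 MHC class I genes tested, 0 were higher or lower in both libraries. The lowest genes were those of monocytes, with Plac8 at 501 CPM in C1q macrophages and 4338 CPM in monocytes of the h219-LLG library, and at 600 and 4359 CPM in the control library.

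**Figure D5:**
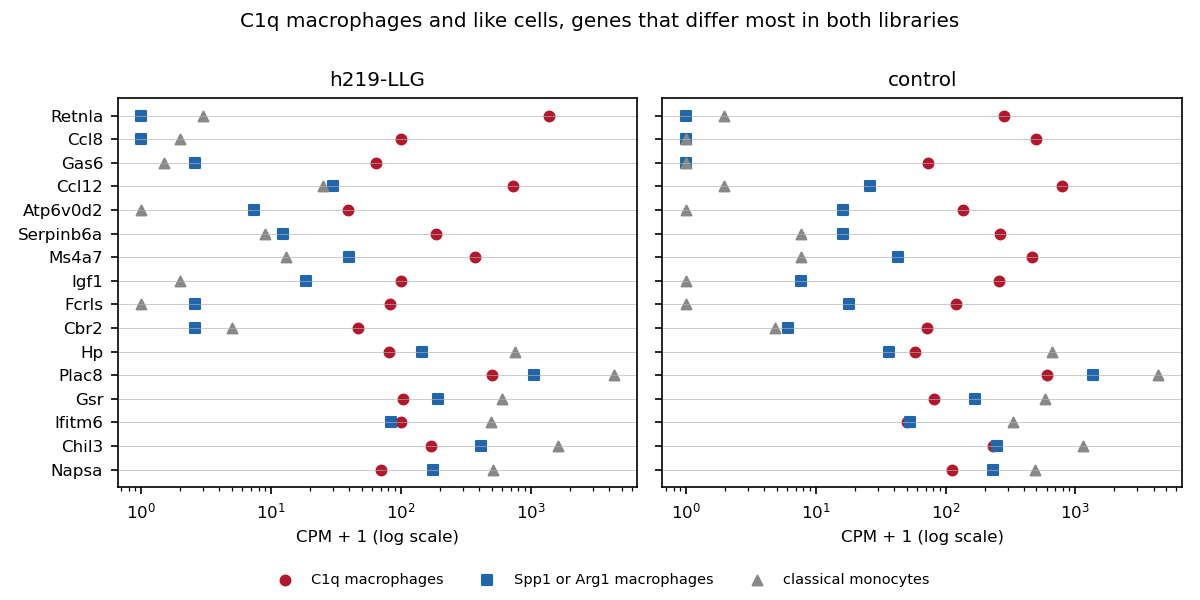
CPM + 1 (log scale) of the 10 highest and the 6 lowest genes of C1q macrophages relative to Spp1 or Arg1 macrophages and classical monocytes, in the h219-LLG library (left) and the control library (right). Ms4a7 stood at 369 CPM and 464 CPM in C1q macrophages of the h219-LLG and the control library, above both other sets in each.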

How the data were processed

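The deposited files hold UMI counts per gene and barcode, not normalized, and the submitters' processing notes name Cell Ranger 5.0.0 and mm10 for the counts the authors deposited. The labels name a 3' v2 kit. The number of mice pooled per library was not given in the sources used here. Members and gene lists were chosen with earlier results of these data known, and 3 lists (peritoneal macrophage genes, T cell RNA, neutrophil granule genes) were added after seeing the subgroups. The files listed 27998 genes.

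Barcodes with at least 500 UMIs, at least 200 genes and at most 10% mitochondrial UMIs were kept. UMIs of the members were summed per library. Genes with at least 50 UMIs were compared as CPM ratios. With 1 library per condition there was no test: shares have exact Clopper-Pearson intervals, sums exact Poisson intervals and ratios of sums the interval of a binomial split. PCR copies are removed by UMIs, but the intervals cover counting error only. Where a library had 0 counts, a floor of 3 counts was used.

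Members of both libraries were clustered together (log of UMIs per 10000 plus 1, 1000 variable genes without C1q, immunoglobulin, T cell receptor, mitochondrial, ribosomal, hemoglobin and sex-linked genes, 15 components, 15 neighbours, Leiden resolution 0.6). A subgroup was not given a cell type name. Doublets were called from simulated pairs of barcodes, at 0.8% per 1000 barcodes: 442 of 7433 (5.95%) in the h219-LLG library and 252 of 5607 (4.49%) in the control library, of which 6 of 147 and 0 of 93 were members and stayed in. Spp1 or Arg1 macrophages had at least 2 UMIs of Spp1 or of Arg1 and at least 1 of Csf1r, Adgre1 or Cd68. Classical monocytes were other barcodes with at least 2 UMIs of Ly6c2, at least 1 of Ccr2 and none of Siglech. Both sets had no UMI of C1qa, C1qb, C1qc, Cd3e and Cd79a. B cells had at least 2 UMIs of Cd79a, at least 1 of Ms4a1 and none of Cd3e.

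Named were, per list, the 2 highest and 2 lowest ratios, the genes the study names, the extremes (6 on either side) of the genes that reached 100 UMIs (without genes over 5 times higher in other cells, or mostly from 1 cell), the 10 genes of highest CPM, the 10 highest over like cells and the 5 leading genes of each subgroup. Other genes named in the text were chosen after their values were seen. The alternatives tried were other filters, rules, scalings and cluster settings, thinning to 1000 UMIs, and leaving out subgroups or cells. Gene positions came from GENCODE M21 and promoters from RefSeq. The scripts were tested on simulated data. Python 3.11.15, numpy 2.4.6, scipy 1.17.1, pandas 2.3.3, scikit-learn 1.9.0, leidenalg 0.10.2 and edgeR 4.0.16 (TMM factors only) were used.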

Additional observations from a re-analysis of the deposited data

How the results depend on the processing

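No paired analysis was possible because each condition has 1 library. The ratio of the shares of C1q macrophages (1.19, h219-LLG over control) was 0.892 with macrophages and monocytes as the denominator, 0.832 without the interferon-led, T cell RNA and Prg4-led subgroups, 0.581 for subgroup 1 alone and 1.82 for members with at least 1 Malat1 UMI. The number of genes at least 2-fold higher (340) was 868 with the mean of single-cell CPM, 41 of 637 genes after thinning to 1000 UMIs, 888 at a minimum of 20 UMIs, 136 at a minimum of 100 UMIs, 206 without the Prg4-led subgroup, 113 without the 3 subgroups and 33 in subgroup 1. The number at least 2-fold lower (40) was 61 when members also had to lack 10 further genes of other cell types, 72 with TMM scaling (which gave 251 higher), 100 with the mean of single-cell CPM, 11 after thinning, 125 and 19 at minimums of 20 and 100 UMIs, 19 in subgroup 1 and 66 among members with Malat1. TMM scaling moved the median log2 ratio of all genes from 0.09 to -0.03. Lists with a median above 0 (18 of 22) were 10 of 16 after thinning and 7 of 17 in subgroup 1. Clustering gave 3 subgroups in place of 6 at resolution 0.3. The Prg4-led subgroup held 15 or 16 h219-LLG cells and 0 control cells in all 7 cluster settings. The interferon-led subgroup stayed apart in 4 of these settings, and at resolution 1.0 the Ccl8 and Mmp12-led subgroup was split and held 10 h219-LLG and 18 control cells. The number of genes that differed from like cells moved by less than 1.5 times in all alternatives run, between 74 and 97 higher genes.

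Under the alternatives, 121 of 2134 values of 125 named genes had the other sign than in all members, in 52 genes. From a ratio past 2-fold, 11 values of 9 genes changed sign: Mgl2 (1.53 with 10 further genes at 0), Ifit1 (-1.17 without the interferon-led subgroup, -2.37 without the 3 subgroups), Slc7a11 (0.46) and Cd163 (-1.72) with the mean of single-cell CPM, Ccl24 (-0.48 without the Prg4-led subgroup, -0.91 without the 3), Saa3 (-5.23) and Ccl5 (-0.83) without the 3, Retnla (-6.75 in subgroup 1) and Hist1h2ae (0.41 with Malat1). The cause was not tested. From smaller ratios, sign changes included Arg1 (-2.71) and Spp1 (-0.61) in subgroup 1, Lair1 (0.55) with the mean of single-cell CPM, and Il1b (0.38), Chil3 (1.18) and 2810417H13Rik (1.42) after thinning. The MHC class II median was 0.46 with the mean of single-cell CPM. The limits are 1 library per condition, 240 cells, unequal depth of the members, and few UMIs for most receptors and cytokines.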
